A study of Mus musculus with 8 samples.

Results

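The genes described here encode enzymes and membrane proteins of the lysosome, together with a cholesterol carrier of its lumen and regulators of the compartment. They were chosen by name, with earlier results of these data known, as 32 genes in 7 roles. These were 7 proteases, 7 glycosidases, 4 sulfatases, 5 lipid hydrolases and activator genes, 6 membrane proteins, 1 cholesterol carrier and 2 regulators. Of the 18193 genes with a probe set of their own, 11525 passed a filter on dim signals and were tested. All 32 lysosomal genes were among them.

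The samples were cultures of mouse oligodendrocyte precursor cells, which divide and give rise to the myelin-forming cells of the brain. Mixed cells of the cerebral hemispheres of ICR embryos aged 15 days were grown for 5 days with 10% serum, and precursors prepared from them were then kept without serum for 48 hr at 31.5 °C (4 arrays) or at 37 °C (4 arrays). No genetic change or drug is named for either temperature. The RNA came from whole primary cultures, which can keep other cell types. Extraction from 3 mice per group is stated, without saying whether the 4 replicates were separate cultures. Errors and p-values therefore measure only the spread between these arrays, which may be technical.

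Lysosomes are acidic compartments in which hydrolases break down proteins, sugar chains, sulfated glycans and lipids delivered by endocytosis and autophagy. Most of the soluble enzymes are tagged with mannose 6-phosphate in the Golgi and carried onward by receptors, while heavily glycosylated proteins such as LAMP1 line the membrane and a proton pump keeps the lumen acidic. Many of the genes carry an E-box-like element that the transcription factor TFEB binds, and in brain the loss of single enzymes causes storage diseases that affect myelin, microglia or neurons.

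The bases before the start sites of 4 of these genes are shown because they hold the core of that element. Arsa and Ctsa fell at 31.5 °C, and the membrane protein genes Lamp1 and Mcoln1 did not pass. Each is the RefSeq promoter window on GRCm38.p6, written 5′ to 3′ on the strand of the gene, from 250 bases before to 50 after the start site. The windows are chr15:89477375-89477674 for Arsa (minus strand), chr2:164833523-164833822 for Ctsa (plus), chr8:13158911-13159210 for Lamp1 (plus) and chr8:3500269-3500568 for Mcoln1 (plus). Capitals mark CACGTG, the core of the element, which reads the same on both strands.
Arsa: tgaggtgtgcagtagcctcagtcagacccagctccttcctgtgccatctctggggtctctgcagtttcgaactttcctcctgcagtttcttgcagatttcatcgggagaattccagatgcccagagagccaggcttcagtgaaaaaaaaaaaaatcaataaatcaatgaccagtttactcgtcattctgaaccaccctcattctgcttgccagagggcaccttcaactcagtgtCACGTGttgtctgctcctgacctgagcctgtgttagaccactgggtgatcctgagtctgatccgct
Ctsa: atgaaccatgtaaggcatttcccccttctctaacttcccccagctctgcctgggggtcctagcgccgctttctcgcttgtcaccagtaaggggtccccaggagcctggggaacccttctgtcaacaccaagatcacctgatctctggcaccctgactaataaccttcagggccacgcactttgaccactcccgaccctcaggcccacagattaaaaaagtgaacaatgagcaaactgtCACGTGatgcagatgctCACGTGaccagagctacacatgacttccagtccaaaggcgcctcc
Lamp1: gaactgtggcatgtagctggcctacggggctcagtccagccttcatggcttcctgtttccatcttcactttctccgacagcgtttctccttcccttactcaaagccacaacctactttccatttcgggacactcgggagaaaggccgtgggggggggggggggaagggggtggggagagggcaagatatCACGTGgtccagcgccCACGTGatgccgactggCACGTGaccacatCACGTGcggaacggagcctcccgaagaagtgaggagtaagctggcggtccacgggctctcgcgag
Mcoln1: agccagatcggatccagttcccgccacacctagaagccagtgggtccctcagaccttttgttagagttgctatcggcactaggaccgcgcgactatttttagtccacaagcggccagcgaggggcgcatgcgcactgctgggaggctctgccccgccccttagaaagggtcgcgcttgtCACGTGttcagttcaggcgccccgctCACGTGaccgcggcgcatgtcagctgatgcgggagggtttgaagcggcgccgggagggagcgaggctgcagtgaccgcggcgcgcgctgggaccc

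The motif stood once in the Arsa window, with its first base 16 bases before the start site. In the Ctsa window it stood 12 bases before and 6 bases after the start, in the Mcoln1 window 71 and 45 bases before, and in the Lamp1 window 4 times, between 61 and 15 bases before. Of the 28 lysosomal genes matched to a window by symbol, 12 held CACGTG (42.9%), against 8.09% of the 27025 genes with a window. The longer TCACGTGA, which contains it, was in 5 of the 28 (17.9%, against 1.12% of genes), namely Cln3, Ctsa, Ctsd, Gla and Mcoln1. The same 8 letters with a G before and a C after them, the full CLEAR element, were in 1, Cln3 (3.57%, against 0.37%). The 12 genes with CACGTG were Arsa, Cln3, Ctsa, Ctsd, Ctsl, Gaa, Gla, Glb1, Lamp1, Mcoln1, Naglu and Sgsh, and 2 of them fell (4 with the block), at a median log2 change of -0.22. Among the 16 with a window and no CACGTG, 2 fell as well (with the block 5 fell and 1 rose), at a median of -0.07. For comparison, 7.77% of all genes tested were lower and 7.64% higher past the threshold. These shares were 15.8% and 15.0% in the blocked fit. The difference between the genes with and without CACGTG was not tested. Asah1, Ctsb, Ctsh and Npc1 were not matched. These matches describe letters in the windows, and whether a factor bound there was not tested. The 27025 genes were not limited to those tested for expression. Many lysosomal genes were already known to carry the element, so the shares with the motif are no test of the list.

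Expression values are scaled array signals on a linear scale. Changes are log2 differences, 31.5 °C minus 37 °C, with the SE, and a gene passed where the adjusted p of limma over all 11525 genes was under 0.05. Arrays with the same replicate number deviated together, so the outcome of a fit that blocks on this number is added where it changes a call. The levels of different genes are not set against each other, since probe sets differ in brightness.

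At 31.5 °C 4 of the 23 hydrolase and activator genes fell, and none of the 6 membrane protein genes passed. A list of 6 genes is too short for 0 calls to set it apart from all genes. Of the 32 genes, 4 fell (12.5%): the sulfatase gene Arsa, the glycosidase gene Hexa and the protease genes Tpp1 and Ctsa. None rose, and 28 did not pass. Over all genes tested, 7.77% fell and 7.64% rose, and 15.4% passed in all. The 32 genes were chosen with earlier results of these data known, so the shares given here are no test of the list. In limma without adjustment (p under 0.05), 12 of the 32 were lower and 0 higher, against 15.5% and 15.6% of all genes. With the block, which called 30.8% of all genes, 11 fell (34.4%, against 15.8% of all genes) and 1 rose, Ppt1 (3.12%, against 15.0%). The 31.5 °C array was the dimmer in each of the 4 pairs for 16 of the 32, against 25.1% of all genes, and the brighter for 3, against 25.3%. The median change of the 32 was -0.17, against -0.0017 for all genes tested, and 26 values lay below 0. The median was -0.14 in pair 1, -0.11 in pair 2, -0.25 in pair 3 and -0.14 in pair 4. When the arrays were instead set to equal medians (median scaling), the median over the 11525 genes was 0.087, that of the lysosomal genes was -0.08 and 2 fell. The count was also 2 when replicate 2 at 31.5 °C, or replicate 1 or 3 at 37 °C, was left out, and it was 6 when replicate 4 at 31.5 °C was. With replicate 1 at 37 °C left out the median was -0.26. The calls of Ctsz, Ctsb, Gla, Psap and Ppt1 with the block did not hold with each pair left out.

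**Figure D1:**
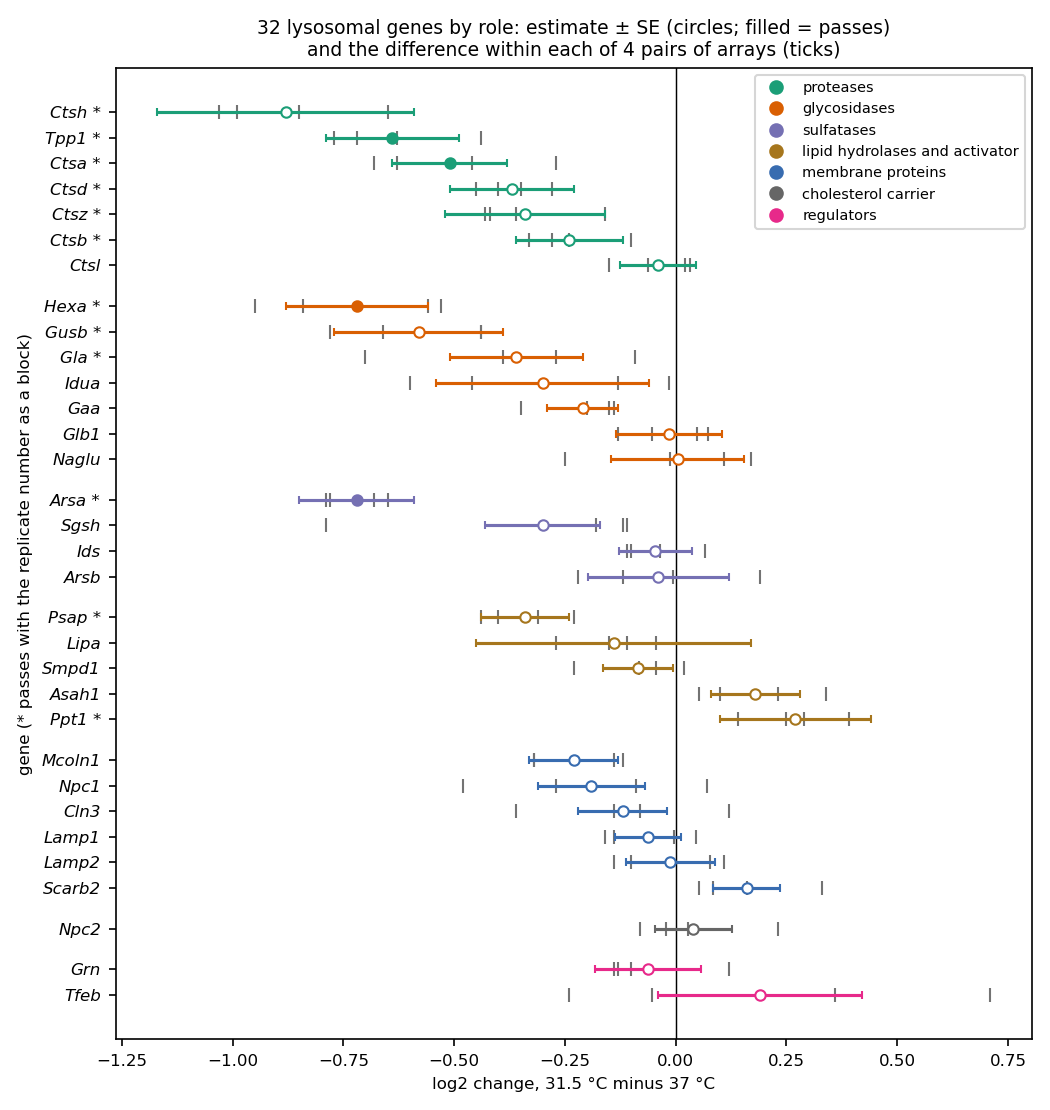
Log2 change (31.5 °C minus 37 °C) of the 32 lysosomal genes, grouped by role. Circles with bars give the estimate ± SE over 4 arrays per temperature, filled where the gene passed, ticks give the difference within each of the 4 pairs, and an asterisk marks a gene that passed with the block. The 4 filled circles lie between -0.72 and -0.51, while the 6 membrane proteins lie between -0.23 and 0.16.

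All 7 proteases had values below 0, and Tpp1 and Ctsa fell (28.6%, against 7.77% of all genes tested). The median of this role was -0.37, and -0.43, -0.27, -0.42 and -0.36 within pairs 1 to 4. With the block 6 of the 7 fell (85.7%, against 15.8% of all genes), all but Ctsl. In bulk RNA such as this, fewer cells of a type and less RNA per cell cannot be told apart.

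Tpp1 (1448313_at) encodes tripeptidyl peptidase, which trims peptides from their amino end and is lost in a late infantile form of ceroid lipofuscinosis. At 31.5 °C replicates 1 to 4 gave signals of 1410, 981, 1378 and 1410, against 2330, 1678, 2133 and 1918 at 37 °C. The highest value at 31.5 °C lay below the lowest at 37 °C, and replicate 2 was the dimmest at either temperature. The change was -0.64 ± 0.15 (adjusted p = 0.0236). The call was lost with median scaling (adjusted p = 0.09), without the filter (0.055), with its probe sets averaged (0.154) and without replicate 1 (0.057) or 3 (0.0504) at 37 °C.

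Ctsa (1448128_at) encodes cathepsin A, a carboxypeptidase that also protects β-galactosidase and neuraminidase in a complex. It had signals of 1182, 1369, 1473 and 1575 at 31.5 °C, against 1900, 1654, 2276 and 2165 at 37 °C. The groups did not overlap, and the nearest values were those of replicate 4 at 31.5 °C and replicate 2 at 37 °C. The level at 31.5 °C was 0.702 times that at 37 °C (-0.51 ± 0.13, adjusted p = 0.0308). This call was lost with median scaling (adjusted p = 0.0745), without the filter (0.062) and with its probe sets averaged (0.239). It was also lost when replicate 1 (0.077), 2 (0.074) or 3 (0.0635) at 31.5 °C, or replicate 1 (0.0574), 3 (0.0655) or 4 (0.0725) at 37 °C, was left out of the Ctsa fit.

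Ctsh (1418365_at), a cysteine protease with aminopeptidase activity, had the value farthest below 0 of the 32 genes and did not pass. Its signals were 127, 123, 177 and 225 at 31.5 °C, against 199, 221, 361 and 447 at 37 °C. Replicates 3 and 4 were brighter than replicates 1 and 2 at both temperatures, so the groups overlapped, although each 31.5 °C array was dimmer than its partner. The change was -0.88 ± 0.29 (adjusted p = 0.0756), and with the block its SE was 0.084 and its adjusted p 0.00216.

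Ctsd, the main aspartic protease of the lysosome, was at 4316 ± 643 at 31.5 °C and 5575 ± 838 at 37 °C (SD, n = 4 each), a change of -0.37 ± 0.14 (limma adjusted p = 0.114, and 0.00939 with the block). Ctsz, a carboxypeptidase among the cysteine cathepsins, was at -0.34 ± 0.18 (adjusted p = 0.236, and 0.018 with the block). Ctsb, an abundant cysteine protease, was at -0.24 ± 0.12 (adjusted p = 0.212, and 0.0403 with the block). With the block Ctsb no longer passed under quantile normalization (0.0676), median scaling (0.125) or with any pair left out (0.0527 to 0.134), and its probe set 1417492_at was at 0.16. Ctsd, Ctsz and Ctsb were dimmer at 31.5 °C in each of the 4 pairs, with overlap between the groups. Ctsl, a further cysteine protease, was at -0.04 ± 0.086 (adjusted p = 0.797), with pairs on both sides of 0 and a value of 0.05 with median scaling.

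Among the 7 glycosidases, which cut sugars from glycolipids and glycans, Hexa fell (14.3%, against 7.77% of all genes tested) and 6 did not pass. The median was -0.30, and -0.46, -0.14, -0.39 and -0.13 within pairs 1 to 4. With the block Hexa, Gusb and Gla fell (42.9%, against 15.8% of all genes).

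Hexa (1449024_a_at) encodes the α subunit of β-hexosaminidase, which removes a sugar from gangliosides and is lost in Tay-Sachs disease. Its signal was 1167, 1058, 1373 and 1097 at 31.5 °C, against 1689, 1559, 2464 and 2116 at 37 °C. The groups did not overlap, and the 37 °C arrays were spread more widely. The level at 31.5 °C was 0.607 times that at 37 °C (-0.72 ± 0.16, adjusted p = 0.0181). Leaving out replicate 2 at 31.5 °C gave -0.67 with an adjusted p of 0.0518, and the gene passed with every other array left out.

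Gusb (1448124_at), β-glucuronidase, acts on glycosaminoglycans. Its signals were 601, 651, 920 and 913 at 31.5 °C, against 1030, 886, 1451 and 1238 at 37 °C. Only replicate 2 at 37 °C lay within the range of the 31.5 °C arrays. The change was -0.58 ± 0.19 (adjusted p = 0.0766, and 0.00539 with the block).

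Gla, the α-galactosidase that is deficient in Fabry disease, was at 217 ± 43.8 at 31.5 °C and 277 ± 32.5 at 37 °C (SD, n = 4 each). Its change was -0.36 ± 0.15 (limma adjusted p = 0.142, and 0.0452 with the block), and within pairs 1 to 4 it was -0.70, -0.27, -0.39 and -0.091. Gaa, the acid glucosidase that degrades glycogen, was at 448, 498, 476 and 455 at 31.5 °C, against 498, 551, 548 and 579 at 37 °C. Its highest array at 31.5 °C stood at the level of the lowest at 37 °C without crossing it, and the change did not pass (-0.21 ± 0.08, adjusted p = 0.107, and 0.0562 with the block). Idua, which acts on heparan and dermatan sulfate, was at -0.30 ± 0.24 (adjusted p = 0.443). Glb1, the lysosomal β-galactosidase, and Naglu, a glucosaminidase of heparan sulfate breakdown, were at -0.015 ± 0.12 (adjusted p = 0.952) and 0.0048 ± 0.15 (adjusted p = 0.989), each with 2 pairs on either side of 0.

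Of the 4 sulfatases, 1 fell, Arsa (against 7.77% of all genes tested), and Sgsh, Ids and Arsb did not pass. The median was -0.17. Arsa was also the 1 sulfatase gene lower past the threshold with the block, against 15.8% of all genes. Arsa (1460346_at) encodes arylsulfatase A, which desulfates sulfatide, a major lipid of myelin, and whose loss causes metachromatic leukodystrophy. It had signals of 235, 204, 273 and 231 at 31.5 °C, against 376, 320, 469 and 399 at 37 °C. The groups were well apart, and the order of the replicates was nearly the same at both temperatures. The level at 31.5 °C was 0.605 times that at 37 °C (-0.72 ± 0.13, adjusted p = 0.0102, at most 0.036 over all alternatives), with pair values between -0.79 and -0.65. It has 1 probe set.

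Sgsh, a heparan sulfamidase, was at 53.9 ± 9.26 at 31.5 °C and 65.8 ± 4.07 at 37 °C (SD, n = 4 each; -0.30 ± 0.13, limma adjusted p = 0.157). Pair 3 had the widest difference, -0.79, and the other pairs lay between -0.18 and -0.11. Ids, which desulfates iduronate in glycosaminoglycans, was at -0.046 ± 0.083 (adjusted p = 0.751), and Arsb, a sulfatase of dermatan sulfate, at -0.039 ± 0.16 (adjusted p = 0.897).

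**Figure D2:**
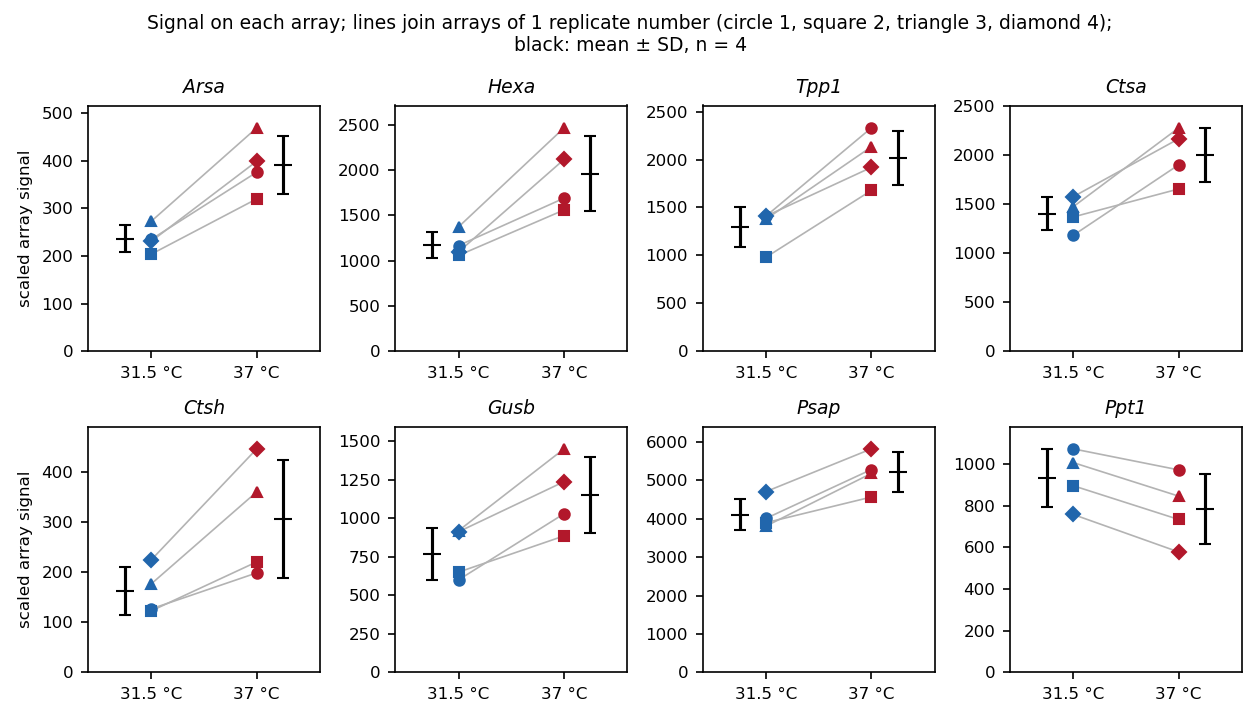
Scaled signal on each array for 8 lysosomal genes, with 31.5 °C left of 37 °C in each panel. Lines join the arrays of 1 replicate number, and black bars give the mean ± SD of 4 arrays. In the Arsa, Hexa, Tpp1 and Ctsa panels the groups do not overlap, while Ctsh and Gusb overlap although every line runs the same way, and the 4 lines of Ppt1 run the other way.

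The 5 genes of lipid breakdown did not pass, at a median of -0.085 (0.0044 with median scaling). Psap (1415687_a_at) encodes the precursor of the saposins, small activators that present sphingolipids to their hydrolases. Its signals were 4009, 3897, 3809 and 4707 at 31.5 °C, against 5282, 4566, 5181 and 5820 at 37 °C. Only replicate 4 at 31.5 °C exceeded the lowest 37 °C array. The change was -0.34 ± 0.10 (adjusted p = 0.0558), and with the block it passed (0.0136).

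Ppt1 (1422467_at), a thioesterase that removes palmitate from proteins and is lost in an infantile ceroid lipofuscinosis, ran the other way. It was at 1073, 896, 1007 and 758 at 31.5 °C, against 972, 734, 846 and 578 at 37 °C. The groups overlapped, and each 31.5 °C array was the brighter of its pair. The change was 0.27 ± 0.17 (adjusted p = 0.327), and with the block it passed (0.03, and 0.0536 to 0.0933 with a pair left out). Its other tested probe set, 1422468_at, was at 0.022. The mean over all 5 of its probe sets, which takes in those below the filter, was at 0.044 (limma adjusted p = 0.816).

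Asah1, the acid ceramidase, was also brighter at 31.5 °C in each pair, with 1503 ± 45.0 at 31.5 °C and 1334 ± 152 at 37 °C (SD, n = 4 each; 0.18 ± 0.10, limma adjusted p = 0.246). With median scaling and the block together it passed (0.27, adjusted p = 0.028). Smpd1, the acid sphingomyelinase, was at -0.085 ± 0.079 (adjusted p = 0.515), and Lipa, which hydrolyses cholesteryl esters and triglycerides, at -0.14 ± 0.31 (adjusted p = 0.791). Lipa ranged from 637 to 1405 within the 31.5 °C arrays and from 707 to 1449 within the 37 °C arrays, highest in replicates 3 and 4 at both temperatures.

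Over all 23 hydrolase and activator genes, 4 fell (17.4%, against 7.77% of all genes tested), 0 rose (against 7.64%) and 19 did not pass. Their median was -0.30. Within pairs 1 to 4 that median was -0.28, -0.14, -0.39 and -0.22. With the block, 11 fell (47.8%, against 15.8% of all genes) and 1 rose (4.35%, against 15.0%).

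None of the 6 membrane proteins passed, against 15.4% of all genes tested, and none did with the block, against 30.8%. Their median was -0.09. At an unadjusted limma p under 0.05, 1 of them, Mcoln1, was lower, against 15.5% of all genes. This median was 0.034 and 0.049 in pairs 1 and 2 and -0.15 and -0.12 in pairs 3 and 4, so its sign differed between pairs. The difference between the hydrolases and the membrane proteins was not tested.

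Lamp1 (1415880_a_at), a main structural glycoprotein of the lysosomal membrane, was at 4867, 4945, 4821 and 4839 at 31.5 °C, against 4879, 4792, 5373 and 5329 at 37 °C. The 31.5 °C arrays were nearly level, and the 37 °C arrays lay on both sides of them (-0.063 ± 0.074, adjusted p = 0.606). Lamp2, its relative, which also serves in chaperone-mediated autophagy, was at 2073 ± 154 at 31.5 °C and 2096 ± 248 at 37 °C (SD, n = 4 each; -0.012 ± 0.10, limma adjusted p = 0.955). Both values were above 0 with median scaling, at 0.026 and 0.077.

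Scarb2 (1454704_at) encodes LIMP-2, a membrane protein of lysosomes that serves as a sorting receptor. It was at 3895, 3498, 3661 and 3471 at 31.5 °C, against 3098, 3373, 3282 and 3276 at 37 °C. All 31.5 °C arrays were brighter than all 37 °C arrays, by a small margin (0.16 ± 0.075, adjusted p = 0.193). It was the 1 gene of the 32 with that order, which held for 11.7% of all genes tested, while the reverse order held for 5 of the 32 (Arsa, Hexa, Tpp1, Ctsa and Gaa) and for 10.5% of all genes. The other tested probe set of Scarb2, 1460235_at, was at -0.077 with overlap between the groups. The mean of the Scarb2 probe sets was at 0.04 (limma adjusted p = 0.826).

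Mcoln1, a calcium channel of the lysosomal membrane, was at -0.23 ± 0.10 (adjusted p = 0.152, and 0.0536 with the block), lower in each pair. It passed with probe sets ending in _x_at or _s_at left out (-0.30, adjusted p = 0.0443). Npc1, the membrane protein that exports cholesterol, was at -0.19 ± 0.12 (adjusted p = 0.319), and Cln3, lost in juvenile ceroid lipofuscinosis, at -0.12 ± 0.10 (adjusted p = 0.498). Npc2, the soluble carrier that hands cholesterol to NPC1, was at 4001 ± 153 at 31.5 °C and 3902 ± 350 at 37 °C (SD, n = 4 each; 0.04 ± 0.087, limma adjusted p = 0.797).

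The regulators did not pass either. Tfeb (1422566_at), the transcription factor that drives lysosomal genes, was at 160, 124, 127 and 152 at 31.5 °C, against 125, 129, 77.8 and 180 at 37 °C. Replicates 3 and 4 at 37 °C were its lowest and highest arrays, and its pairs split, with 2 on either side of 0 (0.19 ± 0.23, adjusted p = 0.61). Without single arrays its value ran from -0.03 to 0.38. Grn, the progranulin gene, whose product regulates lysosomal function, was at -0.062 ± 0.12 (adjusted p = 0.767), and at 0.028 with median scaling.

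The arrays carry 75 probe sets of these genes, of which 65 passed the filter and 10 were dimmer. Over 1 tested probe set was available for 21 genes, and in 13 of them all had the same sign. Each gene above is given by its brightest probe set. Tested singly among all 22519 probe sets, 7 of the 65 passed (10.8%, against 13.2% of all probe sets). With the block 23 of them passed (35.4%, against 26.3%). Of the 33 that do not represent their gene, 2 were lower and 1 was higher past the threshold, and with the block 12 and 1.

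Arsb and Npc2 each had a dim probe set that passed where the brightest did not. Arsb 1458281_at was at 116, 116, 103 and 108 at 31.5 °C, against 35.6, 31.0, 54.0 and 47.1 at 37 °C, a change of 1.43 ± 0.17 (adjusted p = 0.00186), while 1429189_at was at -0.039 and 1429190_at at -0.13. For Npc2, 1455768_at was at 92.8, 104, 137 and 116 at 31.5 °C, against 226, 260, 299 and 257 at 37 °C (-1.22 ± 0.14, adjusted p = 0.00157). Its 2 brighter probe sets were at 0.04 and 0.035. For each of these dim probe sets the groups were far apart, and the value of Arsb and of Npc2 depends on the probe set taken, and which transcripts the probe sets read was not tested.

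For Gaa the dimmer probe set 1419428_a_at passed (-0.39 ± 0.11, adjusted p = 0.0448). The second probe sets of Ctsa and Tpp1 did not follow the brighter ones, at -0.023 for 1458466_at and -0.094 for 1434768_at. Both probe sets of Ctsh, Gusb and Psap and all 3 of Ctsz had values below 0. With the block, 1434503_s_at of Lamp2 (-0.37, adjusted p = 0.0266), 1416671_a_at of Mcoln1 (-0.30, adjusted p = 0.0352) and 1457789_at of Cln3 (-0.39, adjusted p = 0.0168) passed, so single membrane protein probe sets were lower in that fit.

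**Figure D3:**
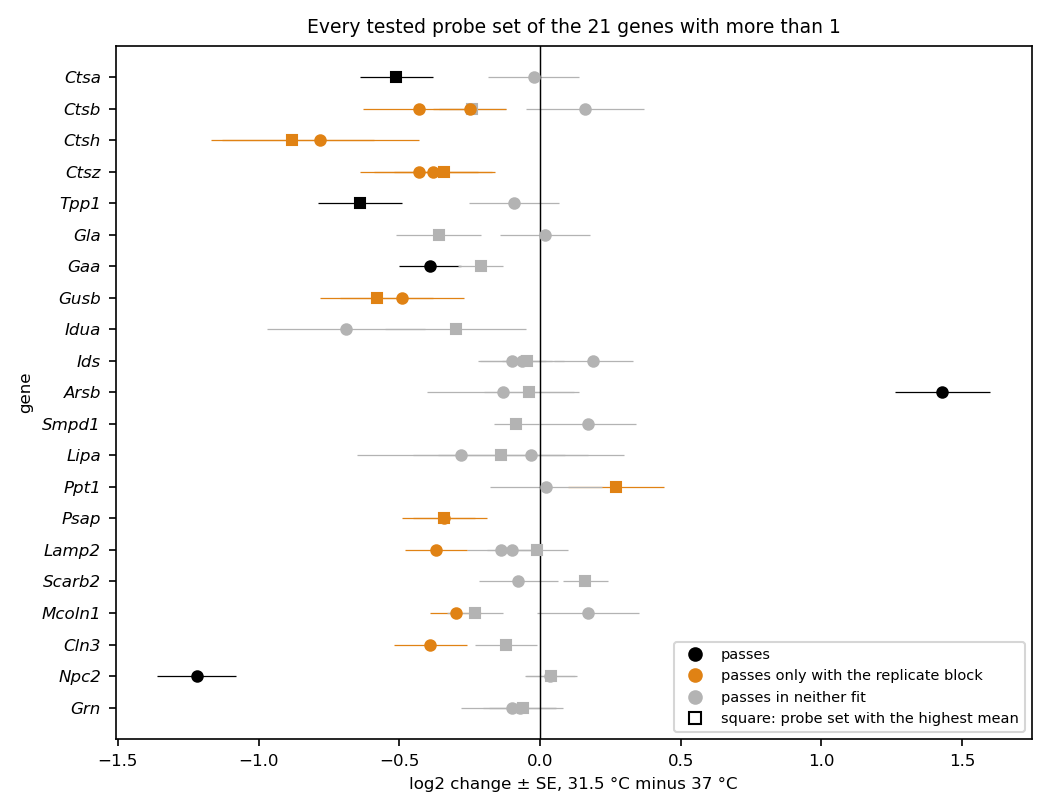
Log2 change (31.5 °C minus 37 °C) ± SE of every tested probe set of the 21 genes with more than 1, with a square for the probe set of highest mean. Colours mark those that passed over all 22519 probe sets, those that passed only with the block, and the rest. The dim probe sets of Arsb, at 1.43, and Npc2, at -1.22, lie far from the others of their genes.

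Further genes of the lysosome were counted by role. Of 21 tested other hydrolases 2 fell (9.52%, against 7.77% of all genes tested), 1 rose (4.76%, against 7.64%) and 18 did not pass. The median was -0.058 (0.031 with median scaling). With the block 6 fell (28.6%, against 15.8% of all genes) and 2 rose (9.52%, against 15.0%). Dpp7, a dipeptidyl peptidase, was at 257, 203, 178 and 159 at 31.5 °C, against 630, 428, 481 and 368 at 37 °C. All 4 arrays at 31.5 °C lay far below those at 37 °C (-1.25 ± 0.19, adjusted p = 0.00563). The phospholipase gene Pla2g15 fell by 0.61 (adjusted p = 0.0101). Hgsnat, which the list holds although it encodes the acetyltransferase of heparan sulfate breakdown, rose by 0.72 (adjusted p = 0.00511), at 363 ± 32.6 at 31.5 °C and 221 ± 26.1 at 37 °C (SD, n = 4 each).

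Among 13 other membrane proteins 1 rose (7.69%, against 7.64% of all genes tested), 1 fell (7.69%, against 7.77%) and 11 did not pass. The median was 0.044. With the block 3 rose (23.1%, against 15.0% of all genes) and 2 fell (15.4%, against 15.8%). Tmem192 rose by 0.67 (adjusted p = 0.00502). Clcn7, a chloride-proton exchanger, fell by 0.47 (adjusted p = 0.0251, lost with median scaling at 0.0856, with its probe sets averaged at 0.48, and without replicate 1, 2 or 3 at 31.5 °C). The cation channel gene Tpcn2 was at 0.32 ± 0.14 (adjusted p = 0.162, and 0.0297 with the block).

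Of 15 tested subunits of the vacuolar ATPase, the proton pump, 1 fell (6.67%, against 7.77% of all genes tested) and 14 did not pass. The median was -0.13, and with the block 3 fell (20.0%, against 15.8% of all genes). Atp6v0a2 fell by 0.61 (adjusted p = 0.00644, lost with median scaling at 0.0869 and with the mean of its probe sets at 0.0603). Atp6v0b was at -0.27 ± 0.08 (adjusted p = 0.0533, and 0.0349 with the block), and Atp6v1c1 at -0.21 ± 0.076 (adjusted p = 0.0919, and 0.048 with the block). For these 3 subunits, named for their small p, the groups did not overlap. All 31.5 °C arrays lay below all 37 °C arrays for 5 of the 15 subunits and for 10.5% of all genes tested.

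Of 13 genes that sort enzymes to the lysosome, 4 fell (30.8%, against 7.77% of all genes tested), 0 rose (against 7.64%) and 9 did not pass. The median was -0.17. With the block 5 fell (38.5%, against 15.8% of all genes) and 1 rose (7.69%, against 15.0%). The 4 that fell without the block were Gga2 and Gga3, adaptors that load mannose 6-phosphate receptors at the Golgi, Vps29 and Igf2r. Vps29 is a subunit of the retromer that returns receptors, and Igf2r is the large mannose 6-phosphate receptor. Gga2 was at 288, 278, 312 and 353 at 31.5 °C, against 446, 484, 464 and 518 at 37 °C. Its groups were well apart (-0.64 ± 0.10, adjusted p = 0.00546). Vps29 fell by 0.38 (adjusted p = 0.0102) and Gga3 by 0.36 (adjusted p = 0.0325). Igf2r fell by 0.58 (adjusted p = 0.0412, at most 0.167 over the alternatives). The calls of Vps29 and Gga3 were lost with median scaling (adjusted p = 0.21 and 0.221), that of Vps29 also with its probe sets averaged (0.22) or with those ending in _x_at or _s_at left out (0.4), and that of Gga3 also without replicate 2, 3 or 4 at either temperature or replicate 1 at 31.5 °C.

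Of 15 tested genes of the TFEB family and its mTORC1 control, 2 fell (13.3%, against 7.77% of all genes tested) and 13 did not pass. The median was -0.10, and with the block 4 fell (26.7%, against 15.8% of all genes). Mitf, a relative of Tfeb, was at -0.48 ± 0.22 (adjusted p = 0.17, and 0.00539 with the block). Fnip2, a folliculin partner, fell by 0.44 (adjusted p = 0.0423, at most 0.127 over the alternatives) and Lamtor2, a subunit of the Ragulator scaffold, by 0.28 (adjusted p = 0.0411, at most 0.468). Fnip2 passed with replicate 3 at 31.5 °C or replicate 1 at 37 °C left out and with no other single array left out, and Lamtor2 with replicate 2 at 31.5 °C left out and with no other. Lamtor5, of the same scaffold, was at -0.22 ± 0.075 (adjusted p = 0.0805, and 0.0404 with the block). Of 13 autophagy genes 2 rose (15.4%, against 7.64% of all genes tested), 0 fell (against 7.77%) and 11 did not pass. Their median was 0.09, and with the block 4 rose (30.8%, against 15.0% of all genes). Wipi1, which binds lipids of the forming autophagosome, rose by 0.49 (adjusted p = 0.00965, and 0.0663 without probe sets ending in _x_at or _s_at). The cargo receptor gene Sqstm1 rose by 0.32 (adjusted p = 0.048, at most 0.248 over the alternatives), a call lost with any single array left out but replicate 4 at 31.5 °C, and Atg9a was at 0.27 ± 0.093 (adjusted p = 0.0845, and 0.027 with the block).

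Markers of the cells in the culture moved as well. Lysosomal genes are strongly expressed in microglia, whose markers were present. Of 15 tested microglia and macrophage markers 13 had values below 0, and 0 passed in limma. Without adjustment 2 were lower and 0 higher, against 15.5% and 15.6% of all genes. With the block 6 of the markers fell (40.0%, against 15.8% of all genes), and the median of the 15 was -0.26. The summed signal of the 15 was 14762, 12685, 20295 and 22033 at 31.5 °C, against 18351, 16210, 30220 and 29047 at 37 °C. Replicates 3 and 4 were higher than 1 and 2 at both temperatures. That order held for 14 of the 15 markers, for 10 of the 32 lysosomal genes (Asah1, Ctsa, Ctsb, Ctsd, Ctsh, Ctsz, Gla, Grn, Gusb and Lipa) and for 8.57% of all genes tested. The log2 ratio of the sums within pairs 1 to 4 was -0.31, -0.35, -0.57 and -0.40. These sums are weighted by the brightest probe sets, and the median change of the 15 markers was -0.25, -0.018, -0.43 and -0.27 in those pairs. P2ry12 was below the filter. C1qb was at 430 ± 166 at 31.5 °C and 976 ± 406 at 37 °C (SD, n = 4 each; limma adjusted p = 0.0659, and 0.00117 with the block), and Csf1r at 1582 ± 500 at 31.5 °C and 1448 ± 535 at 37 °C (limma adjusted p = 0.779). The part of microglia in the lower values of the hydrolases was not tested.

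Of 8 astrocyte markers 0 passed (2 were lower at an unadjusted limma p under 0.05, against 15.5% of all genes), at a median of -0.34. With the block 5 of them fell (62.5%, against 15.8% of all genes). Of 8 neuron markers 0 passed (1 was lower unadjusted, against 15.5% of all genes), at a median of -0.26. With the block 3 fell (37.5%). Of 7 fibroblast and mural cell markers 0 passed (0 unadjusted), at a median of -0.26, and with the block 2 fell (28.6%). All 5 tested markers of differentiated oligodendrocytes fell (against 7.77% of all genes tested), at a median of -1.65. Among them Mbp was at 5474 ± 895 at 31.5 °C and 9500 ± 1050 at 37 °C (SD, n = 4 each, limma adjusted p = 0.00841). With median scaling 4 of the 5 fell, and Cnp did not pass (adjusted p = 0.122), nor did it without replicate 2 at 31.5 °C or without replicate 2 or 4 at 37 °C. In the limma fits with the block and a pair left out, the adjusted p of Cnp reached 0.077. Mog was below the filter. Of 6 genes listed for precursors and the wider lineage, 1, Pdgfra, rose by 0.45 (adjusted p = 0.0373, at most 0.0922 over the alternatives). Gpr17 fell by 0.84 (adjusted p = 0.00242), and Cspg4, Olig1, Olig2 and Sox10 did not pass. Each call is 16.7% of the list, against 7.64% of all genes rising and 7.77% falling. In each of the 4 pairs 2 were higher (Pdgfra and Cspg4) and 2 lower (Olig2 and Gpr17), so the median of -0.11 joins both directions. Over all genes tested, 25.3% were higher and 25.1% lower in each of the 4 pairs. The signals of all 6 were above the filter at both temperatures. The call of Pdgfra was lost when replicate 2, 3 or 4 at 31.5 °C, or replicate 1, 2 or 4 at 37 °C, was left out. The part of these cells in the lower values of Arsa and the other hydrolases was not tested.

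**Figure D4:**
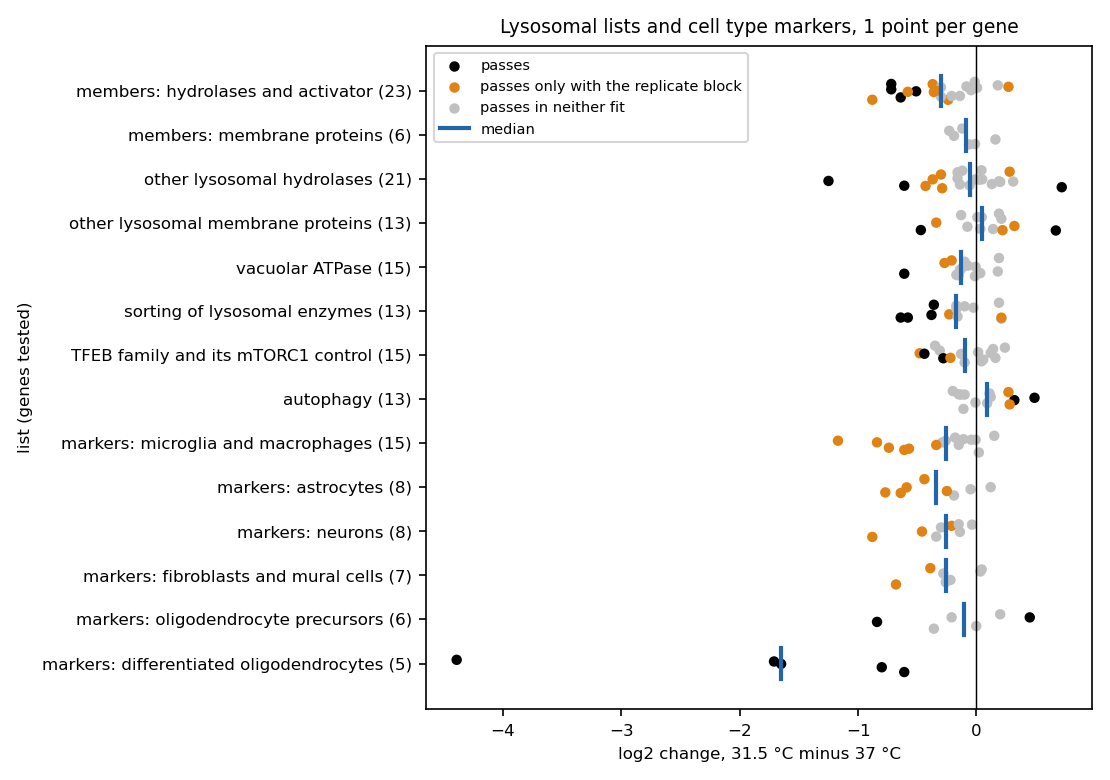
Log2 change (31.5 °C minus 37 °C) of each gene in the lysosomal lists and in the cell type markers, with the number of genes tested in brackets and a blue bar at the median of each list. Black points passed, orange points passed only with the block and grey points passed in neither fit. The hydrolases have a median of -0.30 and the membrane proteins of -0.09, and the markers of differentiated oligodendrocytes lie farthest to the left, with a median of -1.65.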

How the data were processed

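Oligodendrocyte precursor cultures were measured on 8 Affymetrix mouse arrays, 4 at 31.5 °C and 4 at 37 °C. The deposited intensity values are linear probe set signals, which the authors computed by MAS5 according to the submitters' processing notes. Its version and scaling target are not given in the sources used here, and no detection calls were used. Trimmed means (2% off each end) of the arrays differed by up to 1.89 times, so each array was scaled to their mean. Signals under the 25th percentile (9.80) were raised to it and log2 was taken. Probe sets with several gene symbols named no gene. A gene with several probe sets is given by the one of highest mean. The 11525 genes that reached the median of all probe sets (36.3) entered a two-sided limma fit (version 3.58.1, lmFit then eBayes, under R 4.3.3) with temperature as its 1 term. P-values were adjusted over all 11525 by Benjamini-Hochberg, at a threshold of 0.05.

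Deviations from the group means correlated across genes at 0.422 to 0.614 between arrays that share a replicate number, and at no more than 0.0566 between arrays that do not. The numbers were therefore taken as pairs, and the fit with them as a block stands beside results that it changes. The lysosomal genes, the other lists and the markers were chosen with earlier results of these data known. The text names every lysosomal gene and, of each pathway list, the 3 genes of smallest p. Igf2r, Mitf and single markers were named after their values were seen. Alternatives were other scalings, floors, filters, choices of probe set, the block, and leaving out each array or pair. Where probe sets of a gene were averaged, those below the filter were included. Only the limma fits, with and without the block, were tried on simulated log2 values with normal noise. Scaling, floor, filter and choice of probe set were not simulated. Promoter windows came from RefSeq tables. The number of arrays limits the precision, and for 1 gene alone, 4 against 4 arrays allow no exact permutation p below 0.0286. Python 3.11.15 and matplotlib 3.10.9 drew the figures.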

Additional observations from a re-analysis of the deposited data

Results flagged for a closer look

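Of 100 groups of 4 arrays examined for a single outlying array, 4 held one, and chance alone gives about 1 in 20. The measure is the gap to the nearest array as a share of the group's range, set against Dixon's critical value. Tpp1 was lowest in replicate 2 at 31.5 °C (share 0.937), Cln3 in replicate 4 at 31.5 °C (0.926), Gla in replicate 2 at 37 °C (0.909) and Ids in replicate 3 at 37 °C (0.843).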

How the results depend on the processing

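Of 732 values of single lysosomal genes under the alternatives, 628 kept their direction and their side of the threshold, 44 came to pass, 15 ceased to pass and 45 changed sign. The count of all genes past the threshold, 1775, was 725 with median scaling (62.6% of them higher, against 49.6%), 2977 probe sets when tested singly, 3548 with the replicate block, 3471 with quantile normalization and the block, 3755 with median scaling and the block, 872 to 1591 with an array left out, and 2047 to 2422 with a pair left out and the block. For the lysosomal genes the count of 4 was 2 with median scaling or no filter, 7 for probe sets tested singly, 12 with the replicate block, 11 with the block and either quantile or median scaling, 2 to 6 with an array left out, and 7 to 9 with a pair left out and the block. Their median of -0.17 was -0.08 with median scaling, with or without the block, -0.26 to -0.12 with an array left out, and -0.18 to -0.10 with a pair left out and the block. The fits that join the block to a scaling were chosen after seeing the data. Signs changed with median scaling, with or without the block, for Ctsl (0.05), Glb1 (0.074), Ids (0.043), Arsb (0.05), Smpd1 (0.0044), Lamp1 (0.026), Lamp2 (0.077) and Grn (0.028), and with quantile normalization for Glb1 (0.00058). With the mean of probe sets they changed for Ctsl (0.061), Arsb (0.42), Smpd1 (0.041) and Npc2 (-0.40, adjusted p = 0.0301). With 1 array left out the ranges crossed 0 for Ctsl (-0.077 to 0.0063), Glb1 (-0.081 to 0.086), Naglu (-0.11 to 0.084), Arsb (-0.14 to 0.056), Lipa (-0.34 to 0.040), Lamp2 (-0.079 to 0.059), Npc2 (-0.012 to 0.076) and Tfeb (-0.026 to 0.38). With a pair left out and the block, signs changed for Glb1 (0.022 without pair 3), Naglu (-0.05 without pair 2 and -0.031 without pair 4), Arsb (0.02 without pair 4), Lamp2 (0.031 without pair 3 and 0.017 without pair 4) and Npc2 (-0.025 without pair 2). Leaving out 1 array leaves its partner unmatched. With median scaling the median over all genes tested moved up as well, from -0.0017 to 0.087. The cause of the other differences was not tested. No detection calls were used, so whether a dim signal such as that of Sgsh stood above background is not known.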
